A study of Mus musculus with 2 samples.

Results

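The cells described here were splenic CD8 T cells that held RNA of Ccr9 or Itgae within a gate for naive-type cells. A barcode entered the gate with at least 500 detected genes, at most 10% mitochondrial UMIs (unique molecular identifiers, each standing for 1 captured RNA molecule), at most 3 UMIs of Ccl5, 0 UMIs of Ly6c2 and of Gzmk, and at least 1 UMI of Igfbp4 or Ccr7. Of the 2226 gated cells, 1059 had at least 1 UMI of Ccr9 or Itgae and were chosen, out of 13620 cells that passed the filters on genes and mitochondrial UMIs and 14762 barcodes in all. There were 752 chosen cells in the old recipient library and 307 in the young donor library, and the 722 and 445 gated cells with neither gene were the cells they were set against. Because the cells were selected on measured UMIs, the levels of the 7 gate genes Ccr9, Itgae, Igfbp4, Ccr7, Ccl5, Ly6c2 and Gzmk are given as a description.

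Isolated total CD8 T cells of young CD45.1 C57BL/6J mice, aged 3 months, had been transferred into old CD45.2 C57BL/6J mice, aged 24 months. After 1 month, when the hosts were 25 months old, CD3e+ CD8a+ cells were sorted from the host spleen by their CD45 allele, which gave 1 library of old recipient cells and 1 of young donor cells, both wild type. Both populations had spent that month in old hosts, and the donor cells had in addition been isolated and transferred. The labels did not say whether mice were pooled. A difference between the libraries could not be tested, since each group had 1 library and its cells are not replicates, and age, transfer, CD45 strain and library preparation cannot be told apart in that contrast.

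Ccr9 is the receptor for the chemokine Ccl25, which is made by thymic and small intestinal epithelium, and Itgae encodes the alpha E integrin chain (CD103), which pairs with the beta 7 chain of Itgb7 and binds E-cadherin on epithelial cells. Both are turned on during CD8 T cell development in the thymus and remain on many naive CD8 T cells of the mouse. TGF-beta signalling and RUNX factors are known for inducing Itgae in CD8 T cells, and retinoic acid is known for inducing Ccr9. In the GRCm38 (mm10) build, GENCODE M21 places Ccr9 at chr9:123678439-123784330 on the plus strand and Itgae at chr11:73090583-73147446 on the plus strand.

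For Ccr9, Ramp1 and Rgcc, 3 genes given as markers of these cells, the 250 bases upstream of the RefSeq start site (GRCm38.p6) are shown to let the promoters be compared, with letters matching TGNGGT, a core read by RUNX factors, in capitals on either strand.
Ccr9, chr9:123766961-123767210, plus strand: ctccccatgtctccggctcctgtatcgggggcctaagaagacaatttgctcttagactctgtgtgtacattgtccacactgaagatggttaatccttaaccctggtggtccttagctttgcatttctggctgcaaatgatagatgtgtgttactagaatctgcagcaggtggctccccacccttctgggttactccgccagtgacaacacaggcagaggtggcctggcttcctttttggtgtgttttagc
Ramp1, chr1:91179572-91179821, plus strand: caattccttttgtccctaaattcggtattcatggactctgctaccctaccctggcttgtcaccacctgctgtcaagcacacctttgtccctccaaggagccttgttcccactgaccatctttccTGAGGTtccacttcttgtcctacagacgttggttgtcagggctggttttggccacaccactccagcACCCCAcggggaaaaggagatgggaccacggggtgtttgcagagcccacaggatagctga
Rgcc, chr14:79301636-79301885, minus strand: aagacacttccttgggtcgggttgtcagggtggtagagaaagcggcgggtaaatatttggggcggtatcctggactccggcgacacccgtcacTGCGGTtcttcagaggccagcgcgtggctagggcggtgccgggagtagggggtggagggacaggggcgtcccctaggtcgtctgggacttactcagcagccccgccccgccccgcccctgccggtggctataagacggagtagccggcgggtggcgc
The letters occurred 2 times in the Ramp1 window, 1 time in the Rgcc window and 0 times in the Ccr9 window, and 40.1% of 32851 promoter windows of this length held at least 1 match. Neither CTTTGA, a TCF/LEF core held by 13.8% of windows, nor CAGCTG, an E-box held by 13.0%, was in any of the 3 windows. A match is a description of these letters and not a site in use. The Ccr9 window lies within the GENCODE span of the gene given above, and no other Ccr9 window is shown. For Itgae no promoter sequence was available.

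The recipient library held 41504941 UMIs in 6174 barcodes and the donor library 65006187 UMIs in 8588 barcodes, with medians of 7044 and 7928 UMIs per filtered cell. The chosen cells had medians of 7267.5 UMIs in recipient cells and 7849 UMIs in donor cells, against 6964 and 7253 in gated cells without Ccr9 and Itgae, so the chosen cells were slightly deeper in both libraries. The barcode sequences of the libraries overlapped in 105 barcodes. No barcode was chosen in both libraries, and 9 recipient and 2 donor chosen cells carried a barcode that was present in the other library. No doublets were removed from the gate. A score against simulated doublets marked 12 recipient and 6 donor chosen cells, and with marked barcodes removed each of the 84 gene ratios followed through the alternatives stayed within its interval.

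CD8 and naive markers were found in the chosen cells, at summed levels near those of gated cells without. Cd8a reached 673 CPM (UMIs of a gene per 1000000 UMIs of the summed cells) in recipient chosen cells and 760 CPM in donor chosen cells, and Cd8b1 reached 1844 and 1882 CPM. The naive transcription factor gene Lef1 had 415 CPM in the recipient and 369 CPM in the donor. All 10 naive CD8 markers were found in chosen cells of both libraries. Their summed level was 4910 CPM in the recipient and 5196 CPM in the donor, against 4884 and 4934 CPM in gated cells without. Of 10 memory markers, 9 in the recipient and 8 in the donor had UMIs, with summed levels of 823 and 850 CPM, against 894 and 784 CPM in gated cells without. Most of the memory level in chosen cells came from Nkg7, a cytotoxic granule gene, at 661 and 720 CPM. The naive list includes the gate gene Ccr7, and the memory list includes Ccl5 and Ly6c2, which the gate limits. The counts and sums of both lists were thus partly set by the gate.

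Most defining markers of other cells were at or near 0. Cd4, Ncr1, Ms4a1, Ebf1, Itgam, Xcr1, Clec9a, Itgax and Flt3 had 0 UMIs in chosen cells of both libraries. Ighm, the immunoglobulin M heavy chain, led the B cell markers, with 211 CPM in the recipient and 194 CPM in the donor and UMIs in 70.7% and 71.7% of chosen cells. Cd79b, a B cell receptor signalling chain, had 29.1 and 38.6 CPM in chosen cells, against 29.99 and 28.8 CPM in gated cells without. The summed B cell marker level was 240.3 CPM in recipient chosen cells and 232 CPM in donor chosen cells, and 12.9% and 19.2% of these cells held at least 2 of the markers, against 12.7% and 13.3% of gated cells without. Cst3, cystatin C, led the myeloid markers, with 85.0 of a summed 90.4 CPM in recipient chosen cells and 87.8 of 89.4 CPM in donor chosen cells. Cells without Ccr9 and Itgae had similar levels, 196 and 162 CPM of Ighm and 86.6 and 76.6 CPM of Cst3, in the recipient and the donor. Of the 5 regulatory T markers, summed levels in chosen cells were 87.6 CPM in the recipient and 54.6 CPM in the donor, against 77.2 and 56.7 CPM in gated cells without. Their part in the results was not tested.

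Ccr9 or Itgae was found in a larger share of gated cells of the recipient than of the donor. The share was 51.0% in the recipient (95% exact binomial interval 48.4 to 53.6, 752 of 1474 cells) and 40.8% in the donor (37.3 to 44.4, 307 of 752 cells). For Ccr9 it was 28.4% in the recipient and 21.01% in the donor, and for Itgae 33.04% and 27.3%. Both genes together were found in 10.4% and 7.45% of gated cells. These intervals, and all others here, cover counting error only and not the spread between mice. Those of CPM and of ratios also leave out the spread of UMIs between cells.

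Donor cells were sequenced to a higher median depth, so each cell was also thinned to 3500 UMIs and gated again. This dropped 500 recipient and 463 donor cells that were below that depth, of which 11 and 0 had been chosen. The share of gated cells with Ccr9 or Itgae was then 32.2% in the recipient (29.9 to 34.6, 1604 cells) and 21.4% in the donor (18.7 to 24.3, 832 cells). For Ccr9 the thinned shares were 16.6% in the recipient and 9.38% in the donor, and for Itgae 18.5% and 14.2%. The order of the libraries was thus the same at equal depth. The thinned gate is a different set of cells, since a cell can lose its only Ly6c2 or Ccr9 UMI.

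The summed levels over all gated cells followed the same order. Ccr9 had 57.7 CPM in the recipient (exact Poisson interval 53.2 to 62.5) and 34.4 CPM in the donor (29.8 to 39.6), a log2 ratio of 0.74 (0.51 to 0.98). Itgae had 67.3 CPM in the recipient (62.4 to 72.4) and 51.7 CPM in the donor (46.0 to 58.0), a log2 ratio of 0.38 (0.18 to 0.58). Ccr7, the lymph node homing chemokine receptor, had 479 CPM in the recipient and 466 CPM in the donor, a log2 ratio of 0.04 (-0.03 to 0.11). The gate itself took 26.2% of filtered recipient cells and 9.40% of filtered donor cells.

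Gzmk cells with more than 3 Ccl5 UMIs were taken as a reference, though they may themselves express either gene. Gzmk encodes a granzyme of antigen-experienced cells. A UMI of Ccr9 or Itgae was in 4.78% of recipient and 2.07% of donor Gzmk cells with more than 3 Ccl5 UMIs, at median depths of 4655 and 4705 UMIs. After thinning these shares were 2.56% (1.68 to 3.72) and 0.827% (0.379 to 1.56), where the kept cells had 5032 and 5021 UMIs before thinning, against 7402.5 and 7731.5 in the thinned gate. The gated cells were above this reference in both libraries, and the share in the reference cells was also higher in the recipient. Cells of the same gate that did hold Ly6c2 lay between, with shares of 28.5% in the recipient and 17.04% in the donor, and 13.5% and 9.51% after thinning.

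**Figure D1:**
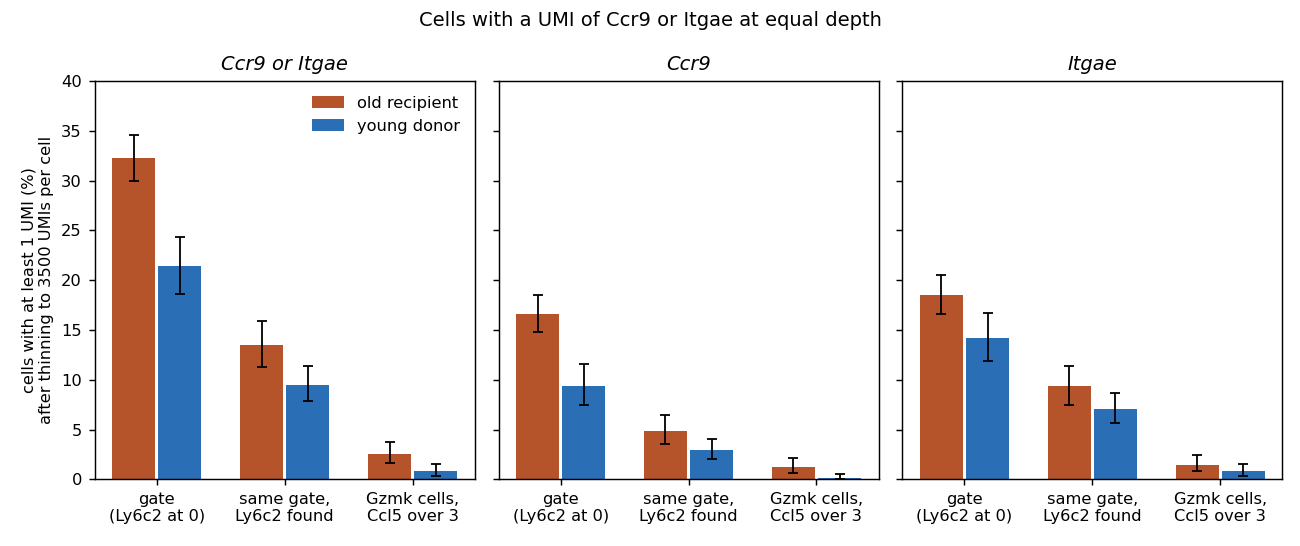
Share of cells with at least 1 UMI of Ccr9 or Itgae, of Ccr9 and of Itgae (y axis, percent) after thinning each cell to 3500 UMIs, in gated cells without Ly6c2, in cells of the same gate with Ly6c2 and in Gzmk cells with more than 3 Ccl5 UMIs, for the old recipient (left bar of each pair) and the young donor. Error bars are 95% exact binomial intervals, and the leftmost pair stands at 32.2% and 21.4%.

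Most chosen cells rested on a single molecule. Ccr9 and Itgae together had 1 UMI in 55.7% of recipient and 63.2% of donor chosen cells, and the most in a cell was 8 UMIs in recipient cells and 6 UMIs in donor cells. The chosen cells held 67.5% of all Ccr9 UMIs of filtered recipient cells and 56.9% of those of filtered donor cells. For Itgae these shares were 56.9% and 40.8%. Just outside the gate, cells with exactly 1 Ly6c2 UMI but otherwise gated numbered 273 in the recipient and 162 in the donor, and 38.8% and 31.5% of them had Ccr9 or Itgae. At the Ccl5 limit there were 27 recipient and 2 donor gated cells with 3 UMIs, and 13 and 2 cells just outside it with 4 UMIs.

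In the recipient, Itgae was found in 36.6% of gated cells with Ccr9 (32.0 to 41.4) and 31.6% of gated cells without Ccr9 (28.8 to 34.5). At equal depth these were 17.3% (12.9 to 22.4) and 18.8% (16.7 to 20.96), so the higher share in Ccr9 cells was not seen after thinning. In the donor the shares were 35.4% with Ccr9 (28.0 to 43.4) and 25.1% without (21.6 to 28.8), and at equal depth 23.1% (18 of 78 cells) and 13.3% (100 of 754 cells), with intervals that overlapped.

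Igfbp4, a secreted binding protein for insulin-like growth factors that helped to define the gate, had the same level in the chosen cells of both libraries, 696 CPM in the recipient and 695 CPM in the donor, a log2 ratio of 0.00 (-0.08 to 0.08) that was -0.19 at equal depth. In gated cells without Ccr9 and Itgae it had 570 and 495 CPM. Its log2 ratio of cells with over cells without was 0.29 in the recipient and 0.49 in the donor, and at equal depth 0.02 and 0.51. The share with Ccr9 or Itgae at equal depth was 32.2% in recipient cells with Igfbp4 and 32.2% in those without it, against 23.9% in donor cells with Igfbp4 (20.5 to 27.5) and 15.0% in those without (10.6 to 20.2).

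Across genes, the cells with and without Ccr9 or Itgae differed little. A gene was counted with at least 100 UMIs in both sets together, and a ratio past 1.5-fold was called, since cells give no replicate error. In the recipient 42 of 6663 genes were more than 1.5-fold higher in the chosen cells (0.63%) and 30 more than 1.5-fold lower (0.45%). In the donor 33 of 4704 genes were higher (0.702%) and 49 lower (1.04%). The median log2 ratio of all genes was -0.00099 in the recipient and 0.014 in the donor. Of 4109 genes high enough in both libraries to be named, 51.9% had a ratio of the same sign in both, close to an even split. Cells without were those in which no UMI of either gene was found, and they may still express the genes. Of the chosen cells, 55.7% in the recipient and 63.2% in the donor had 1 UMI of the 2 genes together. Such missed expression can bring the ratios of cells with over without nearer to 0, and its size was not tested.

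The 12 genes with the highest ratio in both libraries, ranked by the ratio nearer to 0, and the 12 with the lowest are described next. The interval of counting error excluded 0 in both libraries for 8 of the 12 highest and 5 of the 12 lowest. Ranking so many genes picks out chance extremes as well, so these intervals describe the genes and do not test them.

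Ramp1 and Rgcc, the 2 markers of these cells besides the gate genes, were both among the 12 highest. Ramp1, which encodes a subunit of the receptor for the neuropeptide CGRP, had 113 CPM in recipient cells with Ccr9 or Itgae and 86.8 CPM in recipient cells without, and in the donor 93.1 and 58.9 CPM. Its log2 ratios of cells with over cells without were 0.38 (0.20 to 0.56) in recipient cells and 0.66 (0.38 to 0.95) in donor cells. Rgcc, a regulator of the cell cycle, had 203 CPM in recipient cells with and 139 CPM in recipient cells without, and in the donor 180 and 132 CPM. Its log2 ratios were 0.55 (0.41 to 0.69) and 0.44 (0.25 to 0.64). At equal depth the ratios were 0.49 and 0.59 for Ramp1 and 0.54 and 0.52 for Rgcc, in the recipient and the donor. These genes had been given with the definition of the cells from earlier results of these data, so their ratios are no independent support for it.

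Ddc, the enzyme that makes dopamine and serotonin from their precursors, had 27.7 CPM in recipient cells with Ccr9 or Itgae and 13.0 CPM in those without, and in the donor 23.8 and 13.6 CPM. Its log2 ratios were 1.09 (0.66 to 1.53) in recipient cells and 0.80 (0.21 to 1.40) in donor cells, but at equal depth 0.33 and 1.10. The size in the recipient thus changed on thinning, which alters both the depth and the set of chosen cells. Cxcr6, the receptor for the chemokine Cxcl16, had 54.3 CPM with and 37.2 CPM without in the recipient, and 66.5 and 37.2 CPM in the donor. The log2 ratios were 0.55 (0.28 to 0.82) and 0.84 (0.49 to 1.19). Cxcr6 lies 22.1 kb from Ccr9 on chromosome 9, and its place beside a gate gene was not tested as a source of the ratio.

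Cd7, a surface molecule of T and NK cells, had 214 CPM with and 166 CPM without in the recipient, and 163 and 124 CPM in the donor, with log2 ratios of 0.37 (0.24 to 0.50) and 0.40 (0.19 to 0.60). Actn2, an actin cross-linking protein best known from muscle, had log2 ratios of 0.47 (0.26 to 0.68) and 0.37 (0.07 to 0.66). Id2 and Id3, inhibitors of E protein transcription factors with opposed roles in CD8 T cell fate, stood at opposite ends. Id2 had 112 CPM with and 81.8 CPM without in the recipient, and 82.1 and 64.5 CPM in the donor, with log2 ratios of 0.45 and 0.35. Id3 had 63.3 CPM with and 94.8 CPM without in the recipient, and 64.0 and 81.5 CPM in the donor, with log2 ratios of -0.58 (-0.78 to -0.38) and -0.35 (-0.64 to -0.06). At equal depth Id2 had 0.49 and 0.69 and Id3 had -0.66 and -0.62. Leaving out the cell with the most Id3 UMIs gave -0.65 in the recipient and -0.21 in the donor.

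Hist1h2ap, a replication-type histone gene whose reads can be shared with near-identical copies, owed a large part of its recipient ratio to 1 cell. It had 126 CPM with and 52.2 CPM without in the recipient, a log2 ratio of 1.27, and 46.0 and 32.2 CPM in the donor, a log2 ratio of 0.51. A single recipient chosen cell held 265 of the 714 UMIs of that set, and without it the recipient ratio was 0.60. The remaining genes among the 12 highest were Orc2, an origin recognition subunit, Rngtt, the mRNA capping enzyme, Irak4, a kinase of Toll-like receptor signalling, and G6pc3, a glucose-6-phosphatase, and each had an interval that held 0 in at least the donor. At equal depth the recipient ratio was -0.71 for G6pc3 and -0.03 for Rngtt, against 0.38 and 0.39 from all UMIs.

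Among the 12 lowest, Cdc25b, a phosphatase that activates cyclin-dependent kinases, had log2 ratios of -0.67 (-1.03 to -0.31) in recipient cells and -0.64 (-1.25 to -0.04) in donor cells. Cks2, a cyclin-dependent kinase binding protein, had -0.42 (-0.79 to -0.05) and -0.67 (-1.08 to -0.27), and Sidt1, a transmembrane protein, had -0.39 (-0.60 to -0.18) and -0.42 (-0.67 to -0.17). At equal depth Cdc25b had -0.79 and -0.02. Leaving out the cell with the most Cks2 UMIs gave -0.28 in the recipient and -0.95 in the donor. Chmp2b, an ESCRT-III subunit, had -0.51 and -0.53, and at equal depth -0.29 and 0.29, a change of sign in the donor. The others, Pcmtd2, Cnot7, Hsdl2, Nmd3, Trim34a, Tmem185b and Lamp1, had ratios between -0.86 and -0.32 and an interval holding 0 in the donor, and at equal depth the ratio was above 0 in at least 1 library for Cnot7, Hsdl2, Tmem185b and Lamp1.

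**Figure D2:**
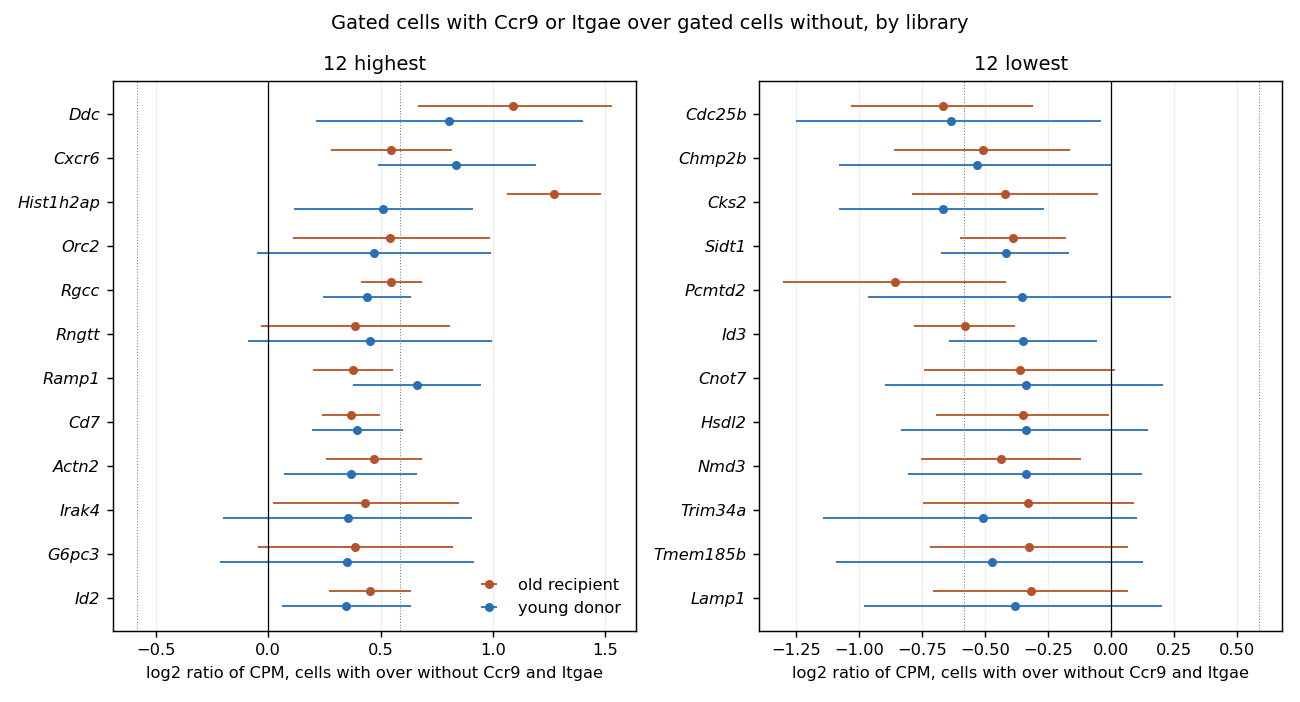
Log2 ratio of CPM in gated cells with Ccr9 or Itgae over gated cells without (x axis) for the 12 highest and 12 lowest genes, with the old recipient above the young donor for each gene. Lines are 95% intervals of counting error and dotted lines mark 1.5-fold, and the intervals exclude 0 in both libraries for 8 and 5 of the 12.

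**Figure D3:**
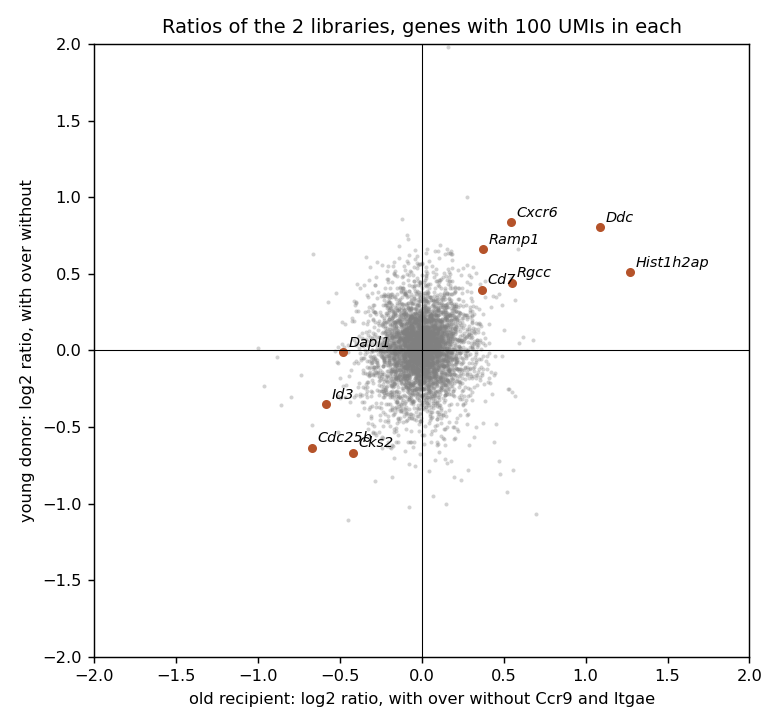
Log2 ratio of CPM in cells with Ccr9 or Itgae over cells without, in the old recipient (x axis) and in the young donor (y axis), one point per gene with at least 100 UMIs in each library (4699 genes). Named genes are in orange, and 51.9% of the genes had the same sign in both libraries.

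Splitting the chosen cells by which gene was found gave 153 recipient and 56 donor cells with both, 265 and 102 with Ccr9 only, and 334 and 149 with Itgae only. Ramp1 was highest in cells with Ccr9, at 130 CPM with both, 122 CPM with Ccr9 only, 97.7 CPM with Itgae only and 86.8 CPM with neither in the recipient. In the donor the same 4 sets had 100.2, 110 and 79.6 CPM, against 58.9 CPM with neither. Cd7 followed Itgae, at 261 CPM with both, 149 CPM with Ccr9 only, 242 CPM with Itgae only and 166 CPM with neither in the recipient, and 198, 137, 167 and 124 CPM in the donor. Cd7 with Ccr9 only thus had a log2 ratio over cells with neither of -0.15 (-0.35 to 0.04) in recipient cells and 0.15 (-0.18 to 0.46) in donor cells.

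Rgcc was above cells with neither in every subset, at 229 CPM with both, 214 CPM with Ccr9 only, 183 CPM with Itgae only and 139 CPM with neither in the recipient, but with Itgae only in the donor its log2 ratio was 0.16 (-0.10 to 0.41). Actn2 was highest with both genes, at 107 CPM in the recipient and 122 CPM in the donor, against 59.6 and 60.8 CPM with neither. Id2 in donor cells with Ccr9 only had 58.2 CPM, against 64.5 CPM with neither, a log2 ratio of -0.15 (-0.65 to 0.32). In the other subsets of the 2 libraries its log2 ratio was 0.43 to 0.67. Cxcr6 had 78.0 CPM with both, 47.2 CPM with Ccr9 only, 49.0 CPM with Itgae only and 37.2 CPM with neither in the recipient. In the donor Cxcr6 had 63.2, 55.6, 74.7 and 37.2 CPM. With Ccr9 only in the recipient its log2 ratio over cells with neither was 0.35 (-0.03 to 0.71). Dapl1, a marker of naive CD8 T cells, had 164 CPM with both, 205 CPM with Ccr9 only, 249.4 CPM with Itgae only and 302 CPM with neither in the recipient, whereas in the donor it had 451, 336, 559 and 472 CPM.

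**Figure D4:**
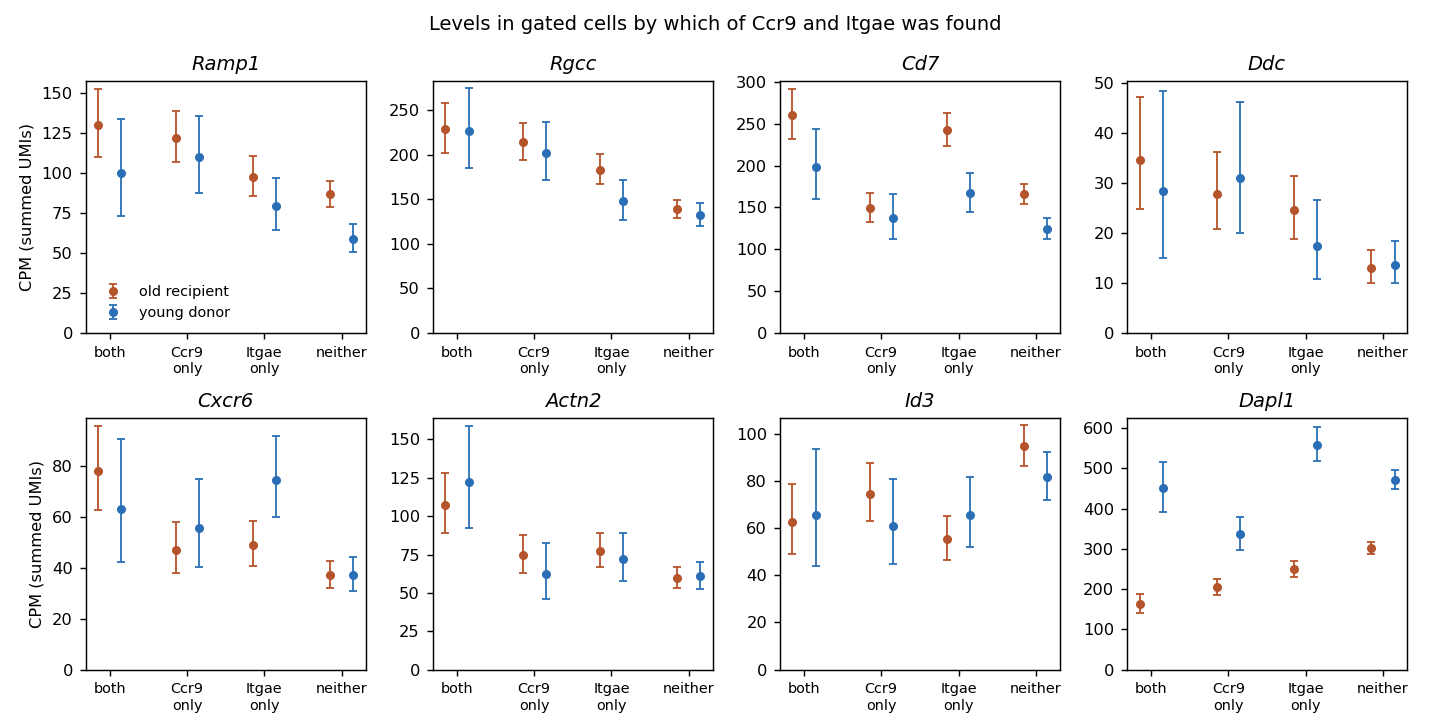
CPM of 8 genes (y axis, summed UMIs of each set) in gated cells with both Ccr9 and Itgae, with Ccr9 only, with Itgae only and with neither, for the old recipient (left point of each pair) and the young donor. Lines are 95% exact Poisson intervals, and Cd7 stands at 242 CPM in recipient cells with Itgae only and 149 CPM in those with Ccr9 only.

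Other genes of the pathways around Ccr9 and Itgae were read against all genes with at least 50 UMIs, whose median log2 ratios of cells with over without were -0.0013 in the recipient and 0.012 in the donor, with 49.5% and 52.6% of genes above 0. At this lower minimum 1.74% of 8181 genes in the recipient and 2.31% of 6792 genes in the donor were more than 1.5-fold higher in the chosen cells, and 1.59% and 2.46% more than 1.5-fold lower. Itgb7, the partner chain of Itgae, had 409 CPM with and 394 CPM without in the recipient, and 397 and 382 CPM in the donor, with log2 ratios of 0.05 and 0.05. Of 14 integrin and adhesion genes, 12 in the recipient and 11 in the donor had enough UMIs, with medians of -0.05 and 0.01. Itga4, the other chain that pairs with Itgb7, had a log2 ratio of 0.33 (0.12 to 0.54) in recipient cells and -0.18 (-0.46 to 0.09) in donor cells. Itgb1, the beta 1 chain raised on memory cells, was the gene past 1.5-fold, at -0.74 in the recipient and -0.16 in the donor.

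The TGF-beta pathway genes had medians of -0.01 in the recipient (13 of 15 genes) and -0.13 in the donor (12 of 15), with 0 past 1.5-fold in either direction. Tgfbr2, the ligand-binding receptor chain, had log2 ratios of 0.04 and 0.20, and Smad7, an inhibitor of the pathway, 0.02 and -0.29. Of 8 RUNX and T-box factors, 5 had enough UMIs, with medians of -0.14 and 0.10, and Runx3, the CD8 lineage factor, had 0.07 (-0.13 to 0.28) and 0.28 (0.00 to 0.56). Runx1, another RUNX factor, had -0.14 (-0.49 to 0.21) in recipient cells and 0.60 (0.11 to 1.10) in donor cells, where it was the member past 1.5-fold. The retinoic acid pathway had 3 of 10 genes with enough UMIs and medians of -0.19 and -0.22, and Rara, a retinoic acid receptor, had -0.19 and -0.22. The 12 genes of CGRP and cAMP signalling had medians of 0.01 over 11 genes in the recipient and 0.07 over 8 in the donor. In that list, Calcrl, the partner of Ramp1 in the CGRP receptor, had 7.58 CPM with and 6.999 CPM without in the recipient and 9.03 and 8.68 CPM in the donor.

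The egress receptor gene S1pr1 and its regulator Klf2 differed little. S1pr1, the receptor for exit from lymphoid tissue, had 205 CPM with and 206 CPM without in the recipient, and 205 and 187 CPM in the donor. Klf2, the factor that sustains S1pr1, had log2 ratios of -0.11 and -0.15. The 18 chemokine and S1P receptor genes had medians of -0.09 over 8 genes with enough UMIs in the recipient and -0.10 over 7 in the donor. In the recipient 2 of the 8, Cxcr3 and Cxcr4, were more than 1.5-fold lower in the chosen cells, against 1.59% of all genes at this minimum. In the donor 0 of the 7 were lower by that much and 1, Cxcr6, was higher, against 2.46% and 2.31%. Cxcr3, a receptor of memory cells, had 9.34 CPM with and 18.2 CPM without in the recipient, and 22.98 and 27.0 CPM in the donor, with log2 ratios of -0.96 (-1.48 to -0.46) and -0.23 (-0.74 to 0.27).

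The 20 naive T cell genes had medians of -0.01 in the recipient and -0.02 in the donor over the 19 with enough UMIs, and 0 of them was past 1.5-fold in either library. Of 20 memory genes, 4 of the 15 with enough UMIs in the recipient were more than 1.5-fold lower in the chosen cells and 0 of 13 in the donor, against 1.59% and 2.46% of all genes at the same minimum, and the medians were -0.09 and -0.04. These 4 were Cd44 at -0.92, the adhesion receptor by which memory cells are sorted, Cxcr3 at -0.96, S100a6, a calcium-binding protein, at -1.002 and Itgb1 at -0.74. A single recipient cell without Ccr9 and Itgae held 52 of the 339 S100a6 UMIs of its set, and 1 such donor cell held 67 of 122. Dapl1 was 217 CPM with and 302 CPM without in the recipient, a log2 ratio of -0.48 (-0.59 to -0.37), and 468 and 472 CPM in the donor, a log2 ratio of -0.01 (-0.12 to 0.10).

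T cell receptor signalling genes, 16 of 16 with enough UMIs, had medians of -0.02 in the recipient and 0.08 in the donor and 0 past 1.5-fold. Of 16 immediate early genes, 12 had enough UMIs, of which 11 were below 0 in recipient cells and 9 in donor cells, with medians of -0.09 and -0.19. Nr4a1, a gene induced by receptor signals, had -1.25 and -1.78, yet 1 donor cell without Ccr9 and Itgae held 48 of the 59 UMIs of its set. Interferon response genes had medians of 0.11 (17 genes) and 0.18 (14 genes), with 1 more than 1.5-fold higher in each library, Ifit1 in the recipient and Isg15 in the donor. The lists on cytokine receptors, MHC class I, cell cycle inhibitors and heat shock had medians between -0.12 and 0.03, and the genes past 1.5-fold in them were Foxo3 at -0.74 and Tob1 at -0.62, both in the donor.

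Tissue residency and thymic genes were mostly too low to read. Of 12 residency genes 4 had enough UMIs, with medians of 0.08 in the recipient and 0.41 in the donor, and apart from Cxcr6 the gene past 1.5-fold was Xcl1, a chemokine, at 1.56 in the donor with 32 of 38 UMIs in 1 cell. Of 16 thymocyte and recent thymic emigrant genes, 7 in the recipient and 5 in the donor had enough UMIs, with medians of -0.12 and -0.12. Myb, a factor of lymphocyte precursors, had 18 UMIs with and 42 UMIs without in the recipient, and 4 and 24 UMIs in the donor.

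Cell cycle genes had medians of 0.18 over 8 of 13 genes in the recipient and 0.09 over 3 in the donor. In the recipient 3 of the 8, Pclaf, Top2a and Rrm2, were more than 1.5-fold higher in the chosen cells, against 1.74% of all genes, and 0 of 3 in the donor. Pclaf, a replication factor, had 49 UMIs in 3 chosen recipient cells, 35 of them in 1 cell, against 20 UMIs in 4 recipient cells without. Top2a, a topoisomerase of dividing cells, had 55 UMIs in 20 chosen recipient cells, 18 of them in 1 cell, against 24 UMIs in 17 recipient cells without. Rrm2, a ribonucleotide reductase subunit, had 40 UMIs in 6 chosen recipient cells, 20 of them in 1 cell, against 21 UMIs in 12 recipient cells without. Ikzf2, which encodes Helios, had 58 UMIs in 34 chosen recipient cells, against 29 UMIs in 22 recipient cells without, and 2 and 1 UMIs in the donor. Il2ra, the interleukin 2 receptor alpha chain, had 28 UMIs in 18 chosen recipient cells and 9 UMIs in 7 recipient cells without, and Foxp3, the regulatory T cell factor, had 15 UMIs in 8 chosen recipient cells, against 8 UMIs in 7 recipient cells without.

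Receptor beta chain V segments were diverse in the chosen cells. A Trbv UMI was found in 99.3% of chosen cells of either library, with 20 segments seen in the recipient and 22 in the donor. The inverse Simpson index, the effective number of equally used segments, was 16.8 in the recipient and 16.9 in the donor chosen cells, against 17.4 and 16.5 in gated cells without. Trbv13-2 was the leading segment in the recipient and shared the lead with Trbv13-3 and Trbv4 in the donor, at 8.84% of recipient chosen cells (6.90 to 11.1) and 7.87% of donor chosen cells (5.11 to 11.5), and reads of related Trbv segments can be shared.

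In the chosen cells 107 of 5872 genes were more than 1.5-fold higher in the recipient (1.82%) and 71 more than 1.5-fold lower (1.21%). In gated cells without Ccr9 and Itgae, 88 of 5879 genes were higher in the recipient (1.5%) and 44 lower (0.748%). The named genes had ratios of the same direction in cells without, except Ilk and Ehd1. The interval of counting error excluded 0 in cells without for 11 of the 12 lowest and 6 of the 12 highest genes, which had been picked for their ratio in the chosen cells.

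Ctse, the endosomal protease cathepsin E, had the lowest ratio, with 18.5 CPM in recipient chosen cells and 89.9 CPM in donor chosen cells, and 19.2 and 95.8 CPM in gated cells without. Its log2 ratios of recipient over donor were -2.28 (-2.63 to -1.94) in chosen cells and -2.32 (-2.67 to -1.98) in cells without. Btg2, an antiproliferative gene, had 108 CPM in recipient and 42.7 CPM in donor chosen cells, and 116 and 49.6 CPM in cells without, with ratios of 1.34 (1.04 to 1.66) and 1.23 (0.98 to 1.49). Cxcr4, a chemokine receptor of lymphocyte retention, had 46 UMIs in recipient and 6 in donor chosen cells, a ratio of 1.72 (0.49 to 3.24), and in cells without 72 recipient and 3 donor UMIs, a ratio of 3.95 (2.35 to 6.26). The 3 genes lie on chromosome 1, where the CD45 gene Ptprc lies as well, at 6.42 Mb for Ctse, 3.99 Mb for Btg2 and 9.47 Mb for Cxcr4 from the start of Ptprc. Donor and recipient differ in the CD45 allele, and the part of the strain segment around Ptprc was not tested.

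Dapl1 had 217 CPM in recipient and 468 CPM in donor chosen cells, a log2 ratio of -1.11 (-1.23 to -0.99), and in cells without 302 and 472 CPM, a ratio of -0.64 (-0.75 to -0.54). Dapl1 UMIs were in 38.2% of the chosen recipient cells and 65.5% of the chosen donor cells. The difference of the 2 log2 ratios was -0.47 (-0.62 to -0.31). The gap between libraries was thus wider in the summed chosen cells, by counting error alone and with no test over mice. It was not wider in every subset of them. In cells with Ccr9 only the Dapl1 ratio was -0.72 (-0.94 to -0.48), near that of cells without. With Itgae only it was -1.16 (-1.32 to -1.01), and with both genes -1.46 (-1.75 to -1.17). Lgals1, galectin-1, had 153 CPM in recipient and 249.5 CPM in donor chosen cells, a ratio of -0.70 (-0.85 to -0.55). In cells without it had 172 and 211 CPM, a ratio of -0.30 (-0.45 to -0.15). Leaving out the cell with the most Lgals1 UMIs gave -0.56 in chosen cells. A single cell also held a part of the Lgals1 UMIs of recipient cells without, and the ratio there was not redone. Ly6a, the Sca-1 antigen, had ratios of -0.50 (-0.68 to -0.32) and -0.15 (-0.32 to 0.01).

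Cd55, a complement regulator 7.62 Mb from Ptprc, went the other way, with a smaller gap in the chosen cells. It had 39.1 CPM in recipient and 57.0 CPM in donor chosen cells, a log2 ratio of -0.54 (-0.86 to -0.23), and 35.4 and 81.2 CPM in cells without, a ratio of -1.20 (-1.48 to -0.92). Nme4, a mitochondrial nucleoside diphosphate kinase, had -1.01 in chosen cells and -0.61 in cells without, and Slpi, a secreted peptidase inhibitor, -0.84 and -0.67. Ass1, the arginine synthesis enzyme argininosuccinate synthase, had -0.50 and -0.45. Ms4a4c, Bmyc, Phf11b and Eef1akmt1 completed the 12 lowest, with ratios of -0.65 to -0.50 in chosen cells and -0.84 to -0.38 in cells without, and at equal depth Bmyc had -0.21 in chosen cells.

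Hist1h2ap had the highest ratio among the 12 highest genes, 1.45 in chosen cells and 0.69 in cells without, and leaving out the cell with 265 UMIs gave 0.79 in chosen cells. Id2 had 0.45 (0.21 to 0.68) in chosen cells and 0.34 (0.10 to 0.59) in cells without. Sgk1, a kinase induced by glucocorticoids, had 0.43 and 0.89, and Sp140, a nuclear body protein, 0.42 and 0.55. Ilk, the integrin-linked kinase, had 0.46 (0.17 to 0.76) in chosen cells and -0.09 (-0.34 to 0.16) in cells without, and Ehd1, an endocytic recycling protein, 0.46 (0.13 to 0.80) and -0.09 (-0.39 to 0.22). Pdcd2, Hypk, Acyp1, Gramd1a and Cers2 had ratios of 0.43 to 0.74 in chosen cells and 0.10 to 0.42 in cells without, and at equal depth Hypk had 0.31 in chosen cells.

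**Figure D5:**
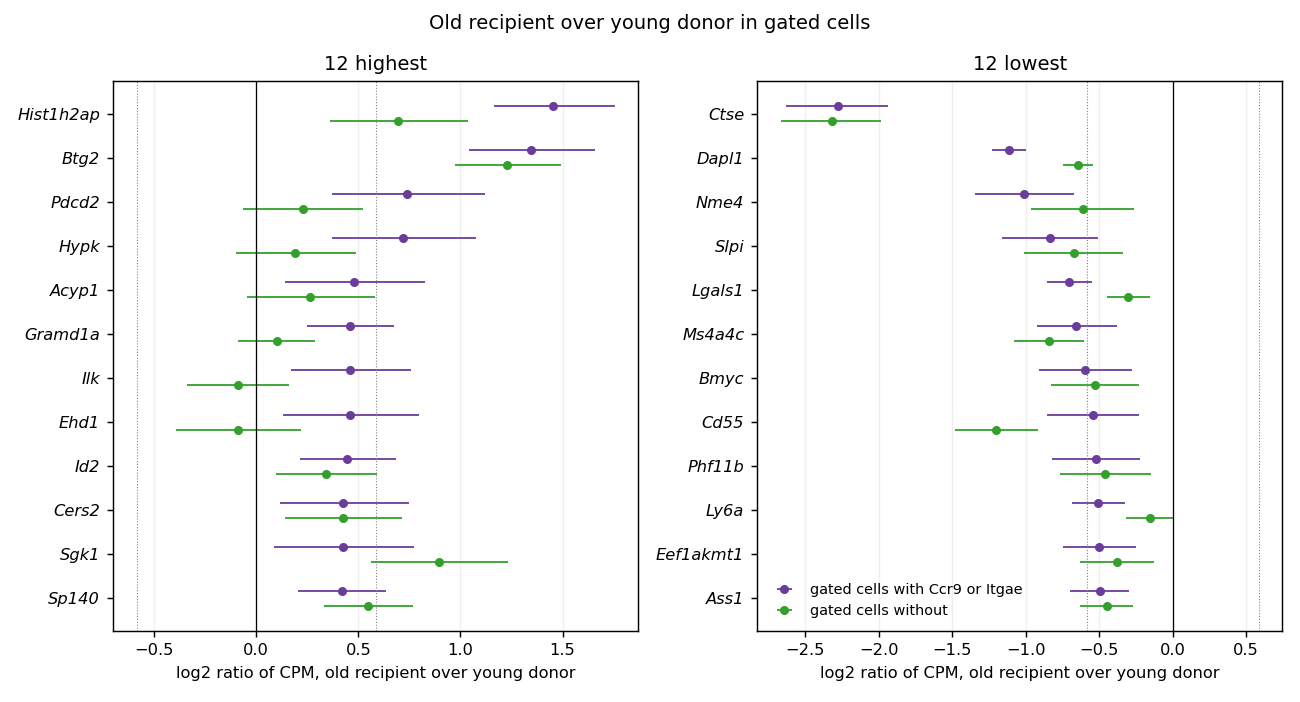
Log2 ratio of CPM, old recipient over young donor (x axis), in gated cells with Ccr9 or Itgae (upper point of each gene) and in gated cells without, for the 12 genes highest and the 12 lowest in the chosen cells. Lines are 95% intervals of counting error and dotted lines mark 1.5-fold, and Ctse stands at -2.28 and -2.32.

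Between libraries, Rgcc, Ramp1 and Cd7 were somewhat higher in chosen cells of the recipient than of the donor, and Itgb7 was level. Rgcc had a log2 ratio of recipient over donor of 0.18 (0.02 to 0.34) in chosen cells and 0.07 (-0.11 to 0.25) in cells without, and Ramp1 0.27 (0.05 to 0.50) and 0.56 (0.31 to 0.81). Cd7 had 0.39 (0.23 to 0.56) and 0.42 (0.24 to 0.59), and Itgb7 0.04 and 0.04. Of 20 naive T cell genes, 19 had enough UMIs in chosen cells, 13 with ratios above 0 and 6 below, with a median of 0.06 and 1 past 1.5-fold, Dapl1. Among genes with at least 50 UMIs, the median was 0.03 in chosen cells and 0.04 in cells without, and in chosen cells 3.67% of 7637 genes were more than 1.5-fold higher in the recipient and 2.4% more than 1.5-fold lower.

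Within the chosen cells, memory genes had a median log2 ratio of recipient over donor of -0.12 over 15 of 20 genes, 6 above 0 and 9 below, and in cells without a median of 0.16 over 15 genes, 11 above 0 and 4 below. Cxcr3 was the lowest in chosen cells at -1.30 (-1.87 to -0.73), against -0.57 (-1.01 to -0.13) in cells without. S100a4, a calcium-binding protein of memory cells, was the highest at 1.24 (0.25 to 2.38), where 1 recipient cell held 30 of 55 UMIs, and in cells without it had 3.37 (1.73 to 5.69) on 48 recipient and 3 donor UMIs. Ikzf2 had a ratio of 3.64 (1.72 to 6.72) on 58 recipient and 2 donor UMIs, and Izumo1r, the folate receptor 4 gene of regulatory and anergic T cells, had 46.5 CPM in the recipient and 15.6 CPM in the donor, a ratio of 1.58 (1.08 to 2.11), against 0.87 (0.48 to 1.27) in cells without. Tox, a factor of thymic development and of exhausted cells, had 38.6 CPM in the recipient and 24.2 CPM in the donor, a ratio of 0.67 (0.25 to 1.11), against 0.43 (0.09 to 0.77) in cells without.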

How the data were processed

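The data were 2 droplet 5' libraries of sorted splenic CD8 T cells. The deposited values are raw UMI counts per gene and barcode, not normalized, per the file headers and the values. Cell Ranger, Seurat and mm10 are named in the submitters' processing notes, and the matrix header gives software version 3.0.2. The annotation release and cell-calling rules are not given in the sources used here.

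Within each library, UMIs of a cell set were added up and divided by the total of those cells (CPM). Ratios have exact intervals for 2 Poisson sums, CPM exact Poisson intervals and shares exact Clopper-Pearson intervals, all at 95% and for counting error only. With 1 library in each of 2 groups there was no test and no pairing. Genes were placed with GENCODE M21 (30934 of 31053 features), and promoters came from RefSeq GRCm38.p6.

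The named genes were the 12 highest and 12 lowest ratios with at least 50 UMIs per library and 20 CPM in one set (with against without, same sign in both libraries), or 100 UMIs and 50 CPM (recipient against donor). The gate genes, receptor segments, ribosomal, mitochondrial, immunoglobulin, unnamed and sex-linked genes were left out of the naming. Other genes named are list members serving as examples; these, and the UMIs held by single cells, were looked up after their values had been seen. The members and the 18 gene lists were chosen with earlier results of these data known. The 1.5-fold limit, the list minimum of 50 UMIs, the subset genes and the motifs were set after the files had been seen. The 84 gene ratios followed through the alternatives were chosen in 2 rounds: a shorter hand-picked set, then, with the first results known, all named genes and a few others, among them Cxcr4 for its values. Each cell was thinned once to 3500 UMIs. Doublet scores used 2 simulated doublets per cell, 1500 genes, 30 components and 30 neighbours, and the highest were removed, in an alternative only, at 0.8% per 1000 barcodes. There were 14 alternatives and 1 added after seeing the data. Scripts used Python 3.11.15, numpy 2.4.6, scipy 1.17.1, scikit-learn 1.9.0 and matplotlib 3.10.9, and were tested on simulated data. Some genes are not reported here.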

Additional observations from a re-analysis of the deposited data

Results flagged for a closer look

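The ratio of Lgals1, galectin-1, had opposite signs in the 2 libraries. Its log2 ratio of cells with over cells without Ccr9 or Itgae was -0.164867 in the old recipient (-0.30 to -0.03) and 0.238364 in the young donor (0.08 to 0.40). Lgals1 had 153 CPM with and 172 CPM without in the recipient, and 249.5 and 211 CPM in the donor. A single cell held 61 of the 859 UMIs of recipient cells without, and another 62 of the 608 UMIs of donor cells with. Both intervals cover counting error only, and the difference between the libraries was not tested.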

How the results depend on the processing

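The share of gated cells with Ccr9 or Itgae was 32.2% in the recipient and 21.4% in the donor when cells were thinned to 3500 UMIs, 22.6% and 15.0% with at least 2 UMIs of the 2 genes, 28.4% and 21.01% with Ccr9 alone, and 33.04% and 27.3% with Itgae alone. The recipient share was the higher one under each of these. The count of genes past 1.5-fold depended most on the minimum of UMIs. With at least 20 UMIs it was 652 of 9469 genes for cells with over without in the recipient. In the donor it was 896 of 8633, and for recipient over donor 1015 of 9137. With at least 200 UMIs these counts were 13 of 4585, 14 of 2713 and 43 of 3747. With the minimum of 100 UMIs they were 72 of 6663, 82 of 4704 and 178 of 5872. Fewer genes reach 100 UMIs in smaller sets. After thinning the count was 101 of 2432 genes for recipient over donor and 117 of 2820 for cells with over without in the donor. From all UMIs these were 178 of 5872 and 82 of 4704. With at least 2 UMIs of the 2 genes these were 135 of 3371 and 146 of 3789, and with Ccr9 alone 132 of 3952 and 128 of 4006. The order of the raw counts thus differed between settings. The numbers of genes tested differed as well, so these counts alone do not rank the comparisons. Of 1092 gene ratios under all alternatives, 1040 stayed within the interval of the reported value, 52 moved outside it, 0 of the called ratios changed sign, and 1061 kept their sign. Thinning moved 17 of 84 ratios outside the interval, more than any other setting, and the requirement of 2 UMIs moved 13. Leaving out the cell with the most UMIs of a gene, chosen after seeing the data, moved 2 of 84, both for Hist1h2ap. Where a set held few UMIs, depth limits the ratios. No paired analysis was possible because each group has 1 library.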
